A study of Mus musculus with 12 samples.

Results

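Interferon beta (Ifnb1), the interferon alpha genes Ifna2 and Ifna4 and the interferon regulatory factors Irf3, Irf5 and Irf7 were followed in lung CD11c+ cells of mice infected with the fungus Pneumocystis. They make up 6 of 18193 genes and 10 of 34945 probe sets with 1 symbol, and all 6 were measured. They were chosen by symbol with their log2 ratios in all 4 groups of mice known, so their differences are given as a description with standard errors and without a test.

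Arrays were made from 3 IFNAR-/- mice and 3 wildtype mice at day 7 after infection, and from 3 IFNAR-/- mice and 3 wildtype mice at day 14. IFNAR-/- mice lack the receptor for type I interferons. Every mouse had received Pneumocystis into the trachea, no uninfected mice were analysed here, and strain, age and sex are not given in the sources used here. CD11c is a surface protein of lung macrophages and dendritic cells, and the bead-isolated cells were a mixture with a stated purity above 90% and under 5% lymphocytes. The study asked whether type I interferon signalling begins in these cells and whether it bears on inflammation when clearance of the fungus starts. Each value is a log2 ratio of a gene to about its own median over the 12 arrays, so arrays can be compared for 1 gene, levels of different genes cannot be compared, and 0 does not mean absence.

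Type I interferons are secreted proteins that signal through the IFNAR receptor on the producing cell and its neighbours. Irf3, which is made without a stimulus and is activated by phosphorylation, switches on Ifnb1 together with NF-kB and other partners. Irf7 is both a target of the interferon receptor and an activator of the interferon alpha genes, so it forms a positive feedback loop. Irf5 acts below Toll-like receptors and is known for inflammatory cytokine genes as well as interferon genes.

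The promoters of the interferon genes are shown because their letters carry the sites through which interferon regulatory factors and NF-kB are known to act on them. Each line gives the 250 bases before the RefSeq gene start (GRCm38.p6), 5′ to 3′ on the gene's own strand. Capitals mark matches to AANNGAAA, the core bound by interferon regulatory factors, and to the NF-kB type sequence GGAAATTCC, which do not overlap each other here. The Ifnb1 window is chr4:88522795-88523044 (minus strand), the Ifna2 window chr4:88683780-88684029 (minus strand) and the Ifna4 window chr4:88841566-88841815 (plus strand).
Ifnb1: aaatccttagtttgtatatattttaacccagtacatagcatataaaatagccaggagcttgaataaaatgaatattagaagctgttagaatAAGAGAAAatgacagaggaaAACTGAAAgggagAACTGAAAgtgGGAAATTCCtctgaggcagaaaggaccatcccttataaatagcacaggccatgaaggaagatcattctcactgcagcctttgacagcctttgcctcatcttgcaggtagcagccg
Ifna2: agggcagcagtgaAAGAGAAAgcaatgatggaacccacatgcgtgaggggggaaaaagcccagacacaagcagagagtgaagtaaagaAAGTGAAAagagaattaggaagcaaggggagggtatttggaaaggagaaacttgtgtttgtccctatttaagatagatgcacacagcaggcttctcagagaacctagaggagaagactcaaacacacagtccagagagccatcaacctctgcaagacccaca
Ifna4: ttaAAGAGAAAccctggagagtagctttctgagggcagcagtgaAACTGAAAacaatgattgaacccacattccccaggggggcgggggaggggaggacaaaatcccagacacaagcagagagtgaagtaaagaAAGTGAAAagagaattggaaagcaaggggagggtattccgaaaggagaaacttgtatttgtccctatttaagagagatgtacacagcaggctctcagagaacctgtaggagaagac

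The Ifnb1 window held 3 matches to AANNGAAA, and GGAAATTCC followed the last of them. AANNGAAA was found 2 times before Ifna2 and 3 times before Ifna4, and GGAAATTCC in neither. Both strands were searched, and all matches lay on the gene's own strand. Among 32851 mouse promoter windows of the same length, AANNGAAA was found in 21.31% and GGAAATTCC in 0.29%. The RefSeq windows of Irf3, Irf5 and Irf7 held none of these letters, which says only that they were not in those windows. The Irf5 window (chr6:29526375-29526624) lies inside the annotated span of its gene, and the Irf7 window (chr7:141266425-141266674) lies partly inside, so neither covers only sequence before the gene. A match is a description of sequence and not evidence of binding.

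The checks of the labels came before the members. Itgax, which encodes CD11c, stayed between -0.28 and 0.25 on all 12 arrays. Ifnar1, a chain of the missing receptor, read -0.53, -1.38 and -0.26 in IFNAR-/- mice and 0.08, 0.64 and 0.07 in wildtype mice at day 7. At day 14 it read 0.10, -1.01 and 0.39 in IFNAR-/- mice and -0.15, 0.07 and 0.11 in wildtype mice, so the groups overlapped. Which part of Ifnar1 the probe sets read and which part was deleted are not given in the sources used here, so this checks little. A pair of arrays was taken to stand apart from the rest, those of IFNAR-/- day 7 mouse 3 and IFNAR-/- day 14 mouse 2. They were named without a numeric rule. On the array of IFNAR-/- day 7 mouse 3, lung epithelial, endothelial, fibroblast and neutrophil markers had medians of 2.13, 2.36, 1.82 and 2.71. Endothelial markers also had a median of 1.73 in wildtype day 7 mouse 1. Day 7 differences include both of these arrays unless stated. The 5′ over 3′ signal of control probe sets, a measure of RNA integrity on a log2 scale, lay between 0.06 and 0.16 in IFNAR-/- mice and between -0.91 and -0.18 in wildtype mice at day 14. Its lowest value, -0.91, was that of wildtype day 14 mouse 3, which is not in the pair. At day 7 it lay between -0.52 and 0.11 in IFNAR-/- mice and between 0.08 and 0.18 in wildtype mice. The signal of poly-A control RNAs also separated the genotypes at day 14, with -1.54 to 0.15 in IFNAR-/- mice and -3.07 to -1.71 in wildtype mice. At day 7 it lay between -3.18 and 1.25 in IFNAR-/- mice and between 0.74 and 1.91 in wildtype mice.

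Interferon beta was higher without its receptor at day 7 and near wildtype at day 14. Ifnb1 (1 probe set, chr4:88522025-88522794, GRCm38.p6) had log2 ratios of 2.44, 3.65 and 2.08 in IFNAR-/- mice at day 7, against -0.38, -0.33 and -0.22 in wildtype mice. Every IFNAR-/- mouse lay far above every wildtype mouse on that day, and the wildtype mice lay close together. The mean difference was 3.03 ± 0.34 (SE, n = 3 per group), or 8.19-fold, the 6th highest of 18193 genes. At day 14 the values were -0.20, 0.31 and -0.08 in IFNAR-/- mice and -0.55, 0.04 and 0.20 in wildtype mice. These groups overlapped, and the difference was 0.11 ± 0.34. Within IFNAR-/- mice, the mean was 0.01 ± 0.26 at day 14 and 2.72 ± 0.82 at day 7 (SD, n = 3 each), a difference of -2.71 ± 0.34 (SE). Within wildtype mice, it was -0.10 ± 0.39 at day 14 and -0.31 ± 0.08 at day 7, a difference of 0.21 ± 0.34 (SE). The IFNAR-/- day 7 mean thus stood alone above 3 groups whose neighbouring values overlapped.

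Leaving out any 1 array kept the day 7 difference of Ifnb1 between 2.57 and 3.35, and it was 3.35 ± 0.32 without both arrays that stood apart. The day 14 difference went from -0.11 to 0.26 as arrays were left out, crossing 0 when wildtype day 14 mouse 1 was omitted (-0.11) or when IFNAR-/- day 14 mouse 2 was (-0.04). It was also -0.04 without both arrays that stood apart. The same difference was 0.86 ± 0.32 after adjustment for the 5′ over 3′ signal, a signal that did not overlap between the genotypes on that day.

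**Figure D1:**
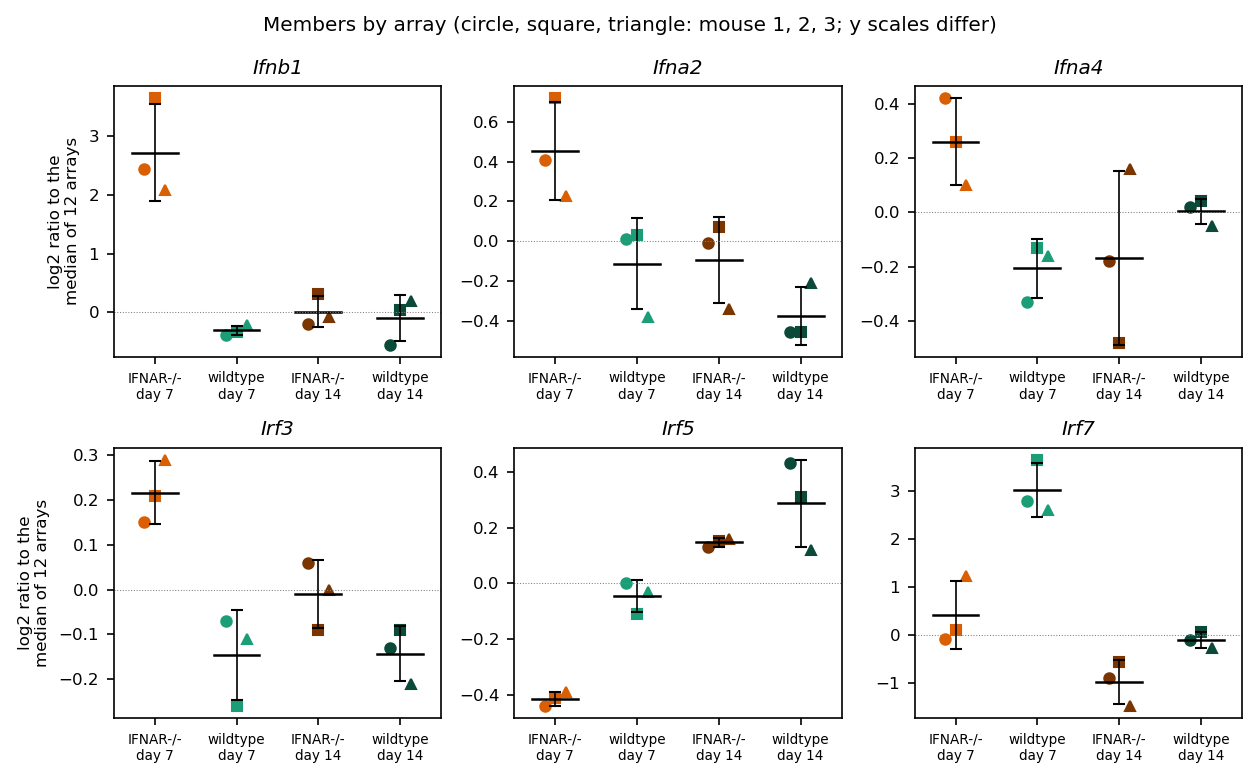
Log2 ratio to the gene's own median for each of the 6 genes, 1 panel per gene, 1 point per mouse and a bar at the mean of each genotype and day, with error bars of 1 SD (n = 3) and a vertical scale of its own in each panel. Ifnb1 stands high only in IFNAR-/- mice at day 7, between 2.08 and 3.65, while Irf7 stands highest in wildtype mice at day 7, between 2.60 and 3.65.

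The interferon alpha genes differed in the same direction at day 7 by much smaller amounts. Ifna2 (1 probe set, chr4:88683207-88683779) had log2 ratios of 0.41, 0.72 and 0.23 in IFNAR-/- mice at day 7, against 0.01, 0.03 and -0.38 in wildtype mice. The groups did not overlap, and the difference was 0.57 ± 0.17 (SE), or 1.48-fold. At day 14 Ifna2 had -0.01, 0.07 and -0.34 in IFNAR-/- mice and -0.46, -0.46 and -0.21 in wildtype mice. The lowest IFNAR-/- mouse lay inside the wildtype range, and the difference was 0.29 ± 0.17, or 0.56 ± 0.19 after adjustment for the 5′ over 3′ signal. Like Ifnb1, Ifna2 was lower at day 14 than at day 7 in IFNAR-/- mice, by a difference of -0.54 ± 0.17. In wildtype mice the day 14 minus day 7 difference was -0.27 ± 0.17, and the days overlapped.

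Ifna4 (1 probe set, chr4:88841816-88842459) had log2 ratios of 0.42, 0.26 and 0.10 in IFNAR-/- mice at day 7, against -0.33, -0.13 and -0.16 in wildtype mice. The groups were separate on that day, with a difference of 0.47 ± 0.15 (SE), or 1.39-fold. At day 14 it had -0.18, -0.48 and 0.16 in IFNAR-/- mice and 0.02, 0.04 and -0.05 in wildtype mice. The IFNAR-/- values lay on both sides of the narrow wildtype range, and the difference was -0.17 ± 0.15. Leaving out both arrays that stood apart gave -0.01 ± 0.12. The day 14 minus day 7 difference was -0.43 ± 0.15 in IFNAR-/- mice, where the days overlapped, and 0.21 ± 0.15 in wildtype mice, where they were separate. Day 7 IFNAR-/- mice had the highest mean for all 3 interferon genes. Their arrays overlapped with no other group for Ifnb1 and Ifna2, and with IFNAR-/- day 14 mice for Ifna4.

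Of the other 17 type I and III interferon genes on the list, 6 were measured by a probe set with 1 symbol, namely Ifna1, Ifna5, Ifna9, Ifna11, Ifnab and Ifnz. With limma and adjustment over 18193 genes, 0 of these 6 differed by genotype on either day, and 0 had an unadjusted p under 0.05. Their day 7 differences lay between -0.21 for Ifnab and 0.32 for Ifna5. The interferon alpha genes are near-identical copies on chromosome 4, so which copy a probe set reads is uncertain for Ifna2 and Ifna4 too. The 11 other listed genes were not analysed here.

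Irf7, the inducible factor of the feedback loop, went the opposite way from interferon beta. Irf7 (1 probe set, chr7:141263183-141266499) had log2 ratios of -0.08, 0.11 and 1.23 in IFNAR-/- mice at day 7, against 2.80, 3.65 and 2.60 in wildtype mice. No IFNAR-/- mouse came near the wildtype range, although mouse 3, whose array stood apart, was higher than the others. The difference was -2.59 ± 0.36 (SE), or 6.04-fold lower, the 22nd lowest of 18193 genes, and it was -3.00 ± 0.29 without both arrays that stood apart. At day 14 Irf7 had -0.89, -0.57 and -1.48 in IFNAR-/- mice and -0.10, 0.06 and -0.27 in wildtype mice. The groups were again separate, by -0.88 ± 0.36, and this difference was -0.44 ± 0.32 with the poly-A control signal as a covariate.

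Irf7 was lower at day 14 in both genotypes. In IFNAR-/- mice the mean was -0.98 ± 0.46 at day 14 and 0.42 ± 0.71 at day 7 (SD, n = 3 each), a difference of -1.40 ± 0.36 (SE). In wildtype mice it was -0.10 ± 0.17 at day 14 and 3.01 ± 0.56 at day 7, a difference of -3.12 ± 0.36 (SE). From high to low the groups ran wildtype day 7, IFNAR-/- day 7, wildtype day 14 and IFNAR-/- day 14. Only the middle pair overlapped. The genotype difference of Irf7 at day 14 minus that at day 7 was 1.72 ± 0.51, and that of Ifnb1 was -2.92 ± 0.48 (SE).

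**Figure D2:**
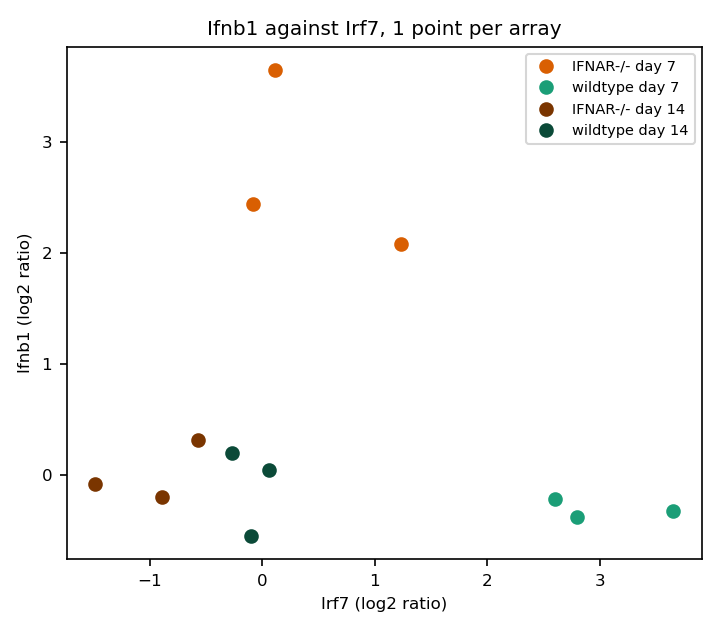
Ifnb1 (vertical axis) against Irf7 (horizontal axis), both as log2 ratios to the gene's own median, with 1 point per mouse coloured by genotype and day. Wildtype day 7 mice lie at high Irf7 (2.60 to 3.65) and low Ifnb1 (-0.38 to -0.22), IFNAR-/- day 7 mice at high Ifnb1 (2.08 to 3.65) and lower Irf7 (-0.08 to 1.23), and day 14 mice of both genotypes lie at Ifnb1 from -0.55 to 0.31 and Irf7 from -1.48 to 0.06.

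The plot of Ifnb1 against Irf7 shows 3 separate clusters of mice, so no correlation over the mice is given. In every wildtype mouse at day 7 Irf7 was above its own median and Ifnb1 below it. The IFNAR-/- mouse with the highest Irf7 at day 7, mouse 3, had the lowest Ifnb1 of that group.

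Irf3, the constitutive factor, was higher without the receptor at day 7 on average, by a small amount. Irf3 (4 probe sets averaged, chr7:44997648-45002848) had log2 ratios of 0.15, 0.21 and 0.29 in IFNAR-/- mice at day 7, against -0.07, -0.26 and -0.11 in wildtype mice. The groups did not overlap, and the difference was 0.36 ± 0.09 (SE), or 1.29-fold. At day 14 the values were 0.06, -0.09 and 0.00 in IFNAR-/- mice and -0.13, -0.09 and -0.21 in wildtype mice, a difference of 0.13 ± 0.09. The day 14 minus day 7 difference was -0.23 ± 0.09 in IFNAR-/- mice and 0.00 ± 0.09 in wildtype mice. The day 7 difference came from part of the probe sets. It was 0.51 ± 0.13 for 1416898_a_at and 0.67 ± 0.13 for 1426111_x_at, but 0.15 ± 0.15 for 1435271_at and 0.12 ± 0.25 for 1438721_a_at.

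Irf5, the factor tied to Toll-like receptors, was lower without the receptor at day 7 on average, but its probe sets disagreed. Irf5 (2 probe sets averaged, chr6:29526130-29541869) had log2 ratios of -0.44, -0.41 and -0.39 in IFNAR-/- mice at day 7, against 0.00, -0.11 and -0.03 in wildtype mice. The mean difference was -0.37 ± 0.09 (SE), and the groups were separate. At day 14 the values were 0.13, 0.15 and 0.16 in IFNAR-/- mice and 0.43, 0.31 and 0.12 in wildtype mice, an overlap with a difference of -0.14 ± 0.09. On the average of its probe sets, Irf5 was higher at day 14 than at day 7, by 0.56 ± 0.09 in IFNAR-/- mice and 0.33 ± 0.09 in wildtype mice. Each rise came mainly from a different probe set. In IFNAR-/- mice 1460231_at gave 0.95 ± 0.15 and 1449678_at gave 0.17 ± 0.20. In wildtype mice they gave -0.07 ± 0.15 and 0.74 ± 0.20.

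One Irf5 probe set, 1460231_at, had -0.67, -0.75 and -0.69 in IFNAR-/- mice at day 7, against 0.06, 0.17 and -0.06 in wildtype mice, a difference of -0.76 ± 0.15 (SE). The other, 1449678_at, had -0.21, -0.08 and -0.09 in IFNAR-/- mice and -0.06, -0.39 and 0.00 in wildtype mice, a difference of 0.03 ± 0.20. At day 14 the probe sets ran in opposite directions, with 0.26 ± 0.15 for 1460231_at and -0.54 ± 0.20 for 1449678_at. The day 14 value of 1449678_at rests on wildtype mice at 1.12, 0.31 and 0.33 against IFNAR-/- mice at 0.14, -0.03 and 0.04. Which transcripts of Irf5 each probe set reads is not given in the sources used here, so no single direction is given for Irf5.

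**Figure D3:**
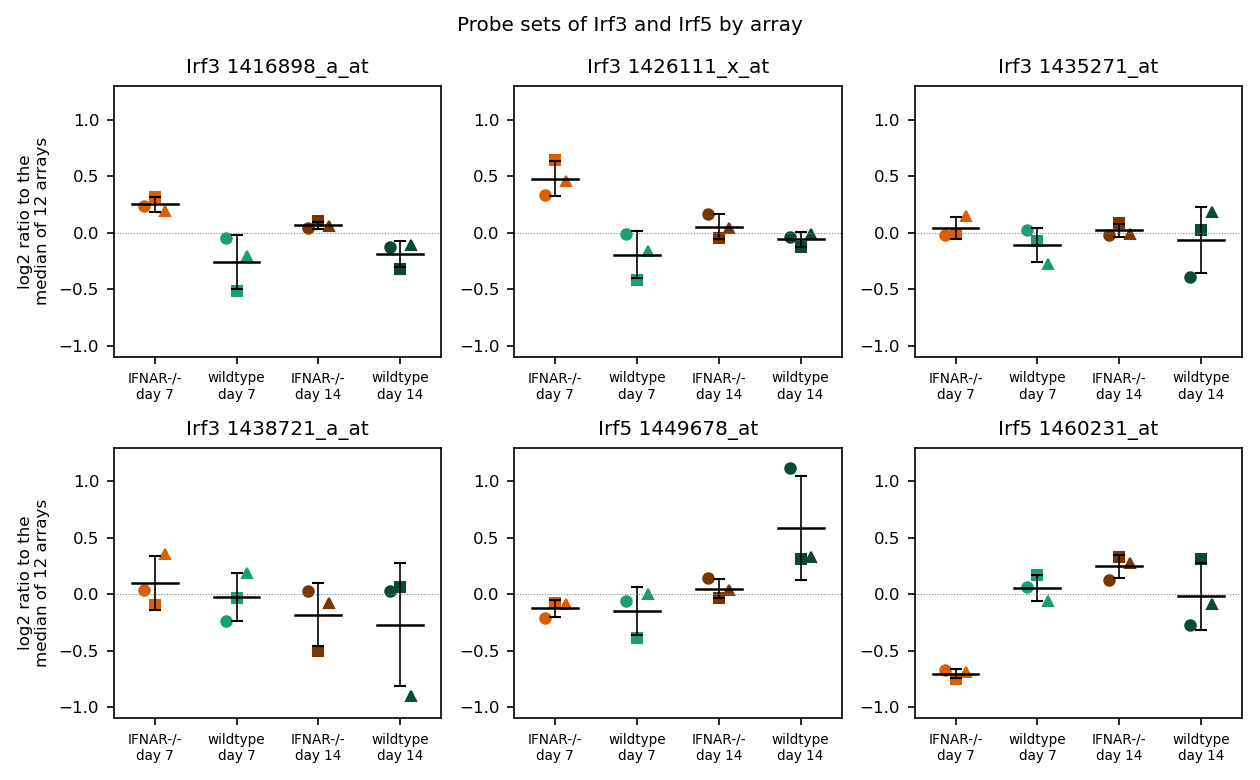
Log2 ratio to the probe set's own median for the 4 probe sets of Irf3 and the 2 of Irf5, with 1 point per mouse by genotype and day. At day 7 the genotypes are separate for 1416898_a_at and 1426111_x_at of Irf3 and for 1460231_at of Irf5, and overlap for the others.

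At day 7, the arrays of IFNAR-/- and wildtype mice did not overlap for any of the 6 genes. Over all genes, 24% did not overlap between these groups. At day 14 the arrays were separate for Irf3 or Irf7 and overlapped for the other 4, against 23.4% of all genes that were separate. The Irf3 arrays at day 14 nearly touched, with -0.09 both as the lowest IFNAR-/- and as the highest wildtype value after rounding. Between day 14 and day 7, 5 of 6 genes were separate in IFNAR-/- mice and 3 of 6 in wildtype mice, against 34% and 31.1% of all genes. Since the genes were picked with these values known, nothing is read from the counts. Genotype and time differences share arrays, so a high IFNAR-/- day 7 group enters both.

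Medians of some cell type marker lists, but not of others, differed between the genotypes at day 7. Plasmacytoid dendritic cells are known as strong makers of type I interferon, and the median of their 9 measured markers (10 listed) lay between -0.42 and -0.07 in IFNAR-/- mice and between 0.06 and 0.24 in wildtype mice. With limma, 1 of the 9 was lower, while over all genes 1.35% were lower and 1.29% higher at day 7. The median of 8 of 10 alveolar macrophage markers lay between 0.92 and 1.11 in IFNAR-/- mice and between -0.06 and 0.80 in wildtype mice, with 0 of 8 past the test. Of 7 conventional dendritic cell markers 5 were lower, their median lying between -0.49 and -0.36 in IFNAR-/- mice and between 0.37 and 0.43 in wildtype mice. The median of 5 neutrophil markers lay between 0.27 and 2.71 in IFNAR-/- mice and between -0.50 and 0.29 in wildtype mice, with 1 of 5 higher. The median of 5 T cell markers lay between -1.04 and -0.36 in IFNAR-/- mice and between -0.02 and 0.80 in wildtype mice, with 0 of 5 past the test. The median of 4 natural killer cell markers lay between -0.61 and -0.33 in IFNAR-/- mice and between 0.03 and 0.87 in wildtype mice, with 1 of 4 lower. The genotype ranges overlapped for neutrophil markers, and also for B cell, lung epithelial, endothelial and fibroblast markers. Of 7 lung epithelial markers 1 was lower. Monocyte medians lay between -0.05 and 0.04 in IFNAR-/- mice and between -0.15 and -0.05 in wildtype mice. Ratios do not show whether a marker was near background, and the part of these markers in the differences of Ifnb1 and Irf7 was not tested. In RNA from a cell mixture, fewer cells of a type and less RNA per cell cannot be told apart.

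The rest of the pathway was taken from lists of sensors, adaptors, factors, receptor parts and targets, of which 65 of 88 genes outside the 6 members were measured. The lists were chosen with earlier results of these data known, so their shares of calls are a description. At day 7, 0 of 65 rose and 9 fell without the receptor (13.8%; limma, adjusted p under 0.05 over 18193 genes), while 2.64% of all genes passed, 1.35% down and 1.29% up. At an unadjusted p under 0.05, 4 were higher and 17 lower. The share of all genes at an unadjusted p under 0.05 was not counted, so nothing is read from such counts here or below. The median difference was -0.13. The high Ifnb1 of IFNAR-/- mice at day 7 stood beside no called rise among these 65 genes. A missing call does not show that a gene did not rise.

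The list of sensors upstream of interferon genes held most of the falls. All 13 measured sensors had a day 7 difference below 0, and 5 passed the test, with a list median of -0.49. Sting1, the adaptor of cytosolic DNA sensing, had -1.12, -1.0 and -1.1 in IFNAR-/- mice against 0.42, 0.49 and -0.03 in wildtype mice, a difference of -1.37 ± 0.15 (SE, limma adjusted p = 0.000913). Clec7a, the Dectin-1 receptor for fungal beta-glucan, had -0.67, -0.75 and -0.66 in IFNAR-/- mice against 0.19, 0.23 and 0.04 in wildtype mice, a difference of -0.85 ± 0.09 (limma adjusted p = 0.000592). For both genes every IFNAR-/- mouse was below every wildtype mouse. Zbp1, a nucleic acid sensor, fell by 2.35 ± 0.33 on the log2 scale (limma adjusted p = 0.00446). Dhx58, an RNA helicase of the RIG-I family, fell by 1.17 ± 0.19 (limma adjusted p = 0.00791). RIG-I itself (Ddx58), last of the 5 by p and named after its values were seen, fell by 0.72 ± 0.14 (limma adjusted p = 0.0205).

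Among the other interferon regulatory factors 3 of 5 fell at day 7. Irf9, the DNA-binding part of the complex that interferon receptors activate, fell by 0.98 ± 0.18 (limma adjusted p = 0.0149). Irf8, a factor of dendritic cells and macrophages, fell by 1.14 ± 0.25 (adjusted p = 0.0378). Irf4, a factor of dendritic cell subsets, fell by 1.63 ± 0.36 (limma adjusted p = 0.0384), a call that was lost without both arrays that stood apart (adjusted p = 0.0572). Irf1 at 0.29 ± 0.31 and Irf2 at -0.15 ± 0.15 did not pass. Of 5 genes known as targets of Irf3 without need of the receptor, Ifit2 fell by 2.35 ± 0.52 (limma adjusted p = 0.0387), and the other 4 had differences below 0 that did not pass. None of 12 adaptors and kinases, 9 brakes on interferon induction, 5 partners at the Ifnb1 promoter or 5 targets of Irf5 passed at day 7 (limma). At an unadjusted p under 0.05 there were 2, 2, 1 and 2 of these. Each list had 1 higher and 1 lower, except the partners, where the 1 gene was higher.

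Passing whichever 1 of the 12 arrays was left out held for 4 of the 9 day 7 falls, namely Clec7a, Dhx58, Sting1 and Zbp1. The number of calls was 4 without IFNAR-/- day 7 mouse 1, and 5 without IFNAR-/- day 7 mouse 2 or without wildtype day 7 mouse 2. It was 5 after adjustment for the 5′ over 3′ signal.

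At day 14 the pathway split differently. Without the receptor 7 of 65 rose (10.8%) and 3 fell (4.62%), against 5.04% of all genes that passed, 1.75% up and 3.29% down. Targets of Irf5 stood among the rises. Tnf, the inflammatory cytokine, had 0.66, -1.1 and 0.42 in IFNAR-/- mice against -3.35, -2.49 and -2.41 in wildtype mice, a difference of 2.74 ± 0.42 (SE, limma adjusted p = 0.00807). Il12a, a subunit of interleukin 12, had 2.64, 2.53 and 2.69 in IFNAR-/- mice against -0.39, 0.66 and 0.28 in wildtype mice, a difference of 2.44 ± 0.45 (limma adjusted p = 0.0153). Each gene had separate groups, and for Tnf the wildtype mice were those far from the median. Tnfaip3, a brake on NF-kB also known as A20, rose by 2.12 ± 0.35 (adjusted p = 0.0102). Rnf125, a ubiquitin ligase that restrains RIG-I, rose by 0.95 ± 0.19 (adjusted p = 0.0214), and the stress factor Atf3 by 0.86 ± 0.18 (adjusted p = 0.0252). The kinases Syk, which acts below Dectin-1, and Ikbke, which phosphorylates Irf3 and Irf7, rose by 1.00 ± 0.18 (adjusted p = 0.013) and 1.21 ± 0.24 (adjusted p = 0.0201). A rise here is relative to wildtype mice. The wildtype mean was also the one farther from the median for Tnfaip3 (-2.19 against -0.08) and Rnf125 (-1.24 against -0.29). The same held for Syk (-1.09 against -0.09) and Ikbke (-0.93 against 0.28). For Il12a and Atf3 the IFNAR-/- means lay farther, at 2.62 and 0.48 against 0.18 and -0.37.

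The day 14 falls were few. Ticam1, the TRIF adaptor of Tlr3 and Tlr4, fell by 0.98 ± 0.16 (limma adjusted p = 0.0102). Crebbp, a histone acetyltransferase recruited to the Ifnb1 promoter, fell by 0.74 ± 0.11 (adjusted p = 0.00844). Ifit1, an antiviral RNA-binding protein, fell by 2.04 ± 0.44 (adjusted p = 0.0266). Wildtype means lay farther from the median for Ticam1 (0.75 against -0.23) and Crebbp (0.49 against -0.25). For Ifit1 the IFNAR-/- mean did (-2.53 against -0.49). Of 13 sensors 0 passed at day 14 and 1 was higher at an unadjusted p under 0.05 (limma). After adjustment for the 5′ over 3′ signal, 0 of 65 pathway genes passed at day 14 and 16 had an unadjusted p under 0.05, and all 10 called genes kept their direction. The count was 6 without IFNAR-/- day 14 mouse 1 or without wildtype day 14 mouse 2. Of the 10 calls, 6 passed whichever 1 array was left out, namely Crebbp, Il12a, Syk, Ticam1, Tnf and Tnfaip3. Those for Atf3, Ifit1, Rnf125 and Ikbke did not. Of 5 T cell markers 3 were higher in IFNAR-/- mice on that day, with a list median between 0.38 and 1.59 in IFNAR-/- mice and between -0.55 and -0.11 in wildtype mice. Of 8 alveolar macrophage markers 3 were higher, with a median between -0.60 and 0.12 in IFNAR-/- mice and between -2.20 and -0.93 in wildtype mice. Another 2 of 7 conventional dendritic cell markers were higher and 2 of 9 plasmacytoid dendritic cell markers lower. Over all genes 1.75% were higher and 3.29% lower on that day. The part of these marker lists in the day 14 differences was not tested.

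**Figure D4:**
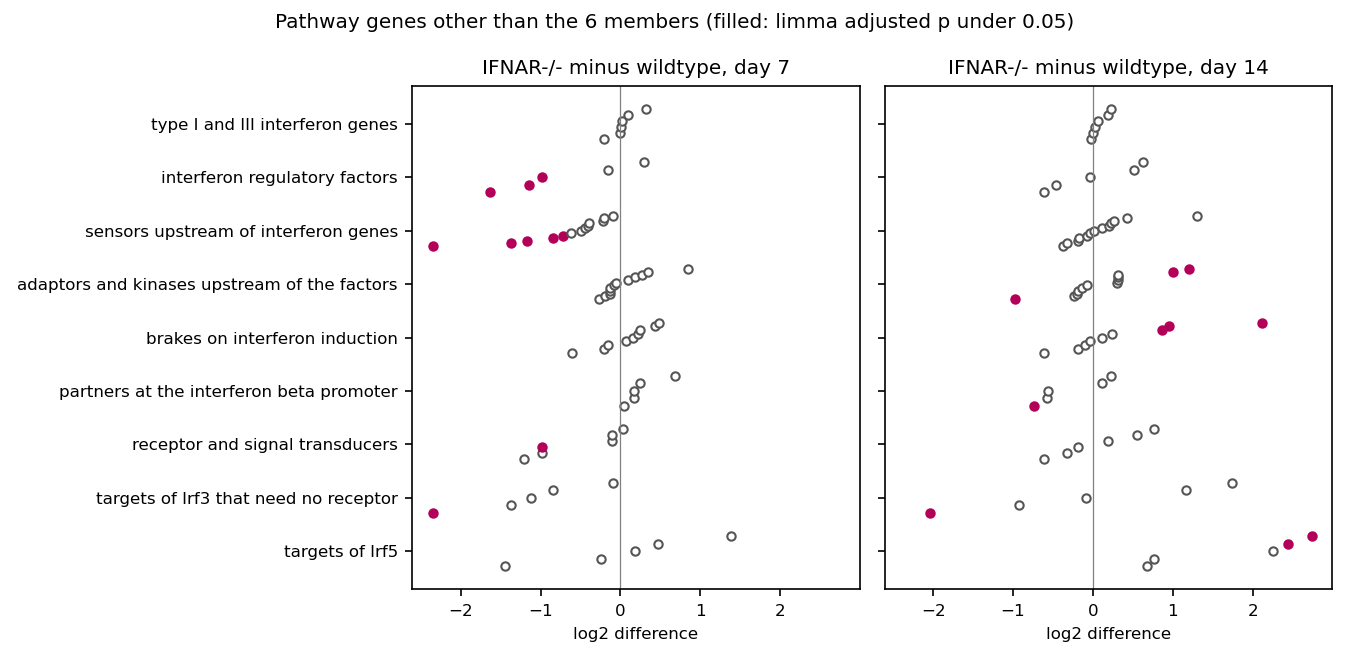
Difference of IFNAR-/- minus wildtype on the log2 scale for the 65 pathway genes, by list, at day 7 (left) and day 14 (right), with 1 point per gene (Irf9 is on 2 lists) and filled points for genes past an adjusted p of 0.05 (limma). All 13 sensors lie below 0 at day 7, while at day 14 their median is 0.01 and the targets of Irf5 all lie above 0.

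Over time, falls among the pathway genes were most frequent in wildtype mice. In IFNAR-/- mice 4 of 65 rose and 9 fell at day 14 against day 7, or 6.15% and 13.8%, against 12.3% of all genes that passed, 4.08% up and 8.25% down, a similar ratio of falls to rises. Of these 13 calls 9 held without both arrays that stood apart. In wildtype mice 2 rose and 19 fell, or 3.08% and 29.2%, against 7.98% of all genes, 3.88% up and 4.1% down. Falls in wildtype mice included Ifit3 by 3.88 on the log2 scale, Ifit2 by 3.08 and Cxcl10 by 3.01, from the list of Irf3 targets. Activity of Irf3 was not measured, and Ifit2 is also known as a gene that interferon induces. The RNA sensor Ifih1 (MDA5) fell by 1.5 ± 0.15 (SE, limma adjusted p = 0.000494). Ifih1 had -0.53, -0.54 and -0.37 in wildtype mice at day 14, against 1.01, 1.27 and 0.78 at day 7. In IFNAR-/- mice Sting1 rose by 1.22 ± 0.15 (limma adjusted p = 0.00117), Clec7a by 0.74 ± 0.09 (adjusted p = 0.00104), Irf4 by 1.91 ± 0.36 (adjusted p = 0.00699) and Il12a by 3.47 ± 0.45 (adjusted p = 0.00136). Ifit1 fell by 3.29 and Mavs, the mitochondrial adaptor of RIG-I and MDA5, by 1.83 in the same mice. Cell markers moved over time as well: 6 of 8 alveolar macrophage markers fell in wildtype mice (list median -1.97), and 3 of 8 fell in IFNAR-/- mice (-1.40). In IFNAR-/- mice 3 of 5 T cell markers and 4 of 7 conventional dendritic cell markers rose. The part of these markers in the changes over time was not tested. After adjustment for the 5′ over 3′ signal 5 pathway genes passed in wildtype mice in place of 21. The wildtype calls for Ifit3, Ifit2 and Cxcl10 were lost, and that for Ifih1 held. The genotype difference itself changed between the days for 8 of 65 pathway genes, 6 upwards and 2 downwards, against 2.48% of all genes, 1.14% up and 1.34% down (limma, adjusted p under 0.05). Sting1 and Clec7a, whose lowest values were those of IFNAR-/- mice at day 7, were among the 6.

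The genes most like each member over the 12 arrays were taken by Pearson correlation of log2 ratios. The points share arrays and fall into groups of mice, so the values describe likeness of pattern only, and each is 1 of 18192 correlations. For Ifnb1 they were the secreted protein gene Adamtsl4 (r = 0.951), Greb1 (0.944), the sialyltransferase St6galnac1 (0.943), the lysophosphatidic acid receptor Lpar4 (0.938) and Smim27 (0.937). Adamtsl4 had a day 7 difference of 2.85 and a day 14 difference of -0.37, close in shape to Ifnb1. For Irf7 they were Ifit2 (r = 0.988), Oas3 (0.987), Rtp4 (0.978), Pml (0.975) and Cmpk2 (0.967), all known as genes that interferon induces. Their day 7 differences ran from -2.81 for Oas3 to -0.55 for Pml and their day 14 differences from -1.12 for Rtp4 to -0.23 for Pml.

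The closest genes to Irf5 were Batf3 (r = 0.977), a factor needed for cross-presenting dendritic cells, then Nol12 (0.952), the inhibitory Fc receptor Fcgr2b (0.950), the lysosomal thiol reductase Ifi30 (0.948) and Ocstamp (0.947). Those closest to Irf3 were Mast3 (r = 0.969), Sirt7 (0.954), Ift140 (0.944), Eloa (0.915) and Kmt5c (0.912). Ifna2 had Pex16 (r = 0.920), Med12l (0.918), Nr6a1 (0.918), Fstl1 (0.915) and Siglece (0.911) nearest to it. Ifna4 had the lowest likeness, with Prdm2 (r = 0.876), Elf2 (0.852), Foxn2 (0.848), Otud3 (0.848) and Prepl (0.847). Without both arrays that stood apart, Batf3 ranked 1 for Irf5, Oas3 ranked 1 for Irf7 and Adamtsl4 ranked 2 for Ifnb1. The other genes named for Ifnb1 then ranked 12 to 19, those for Ifna2 8 to 38, those for Ifna4 10 to 65 and those for Irf3 2 to 35.

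**Figure D5:**
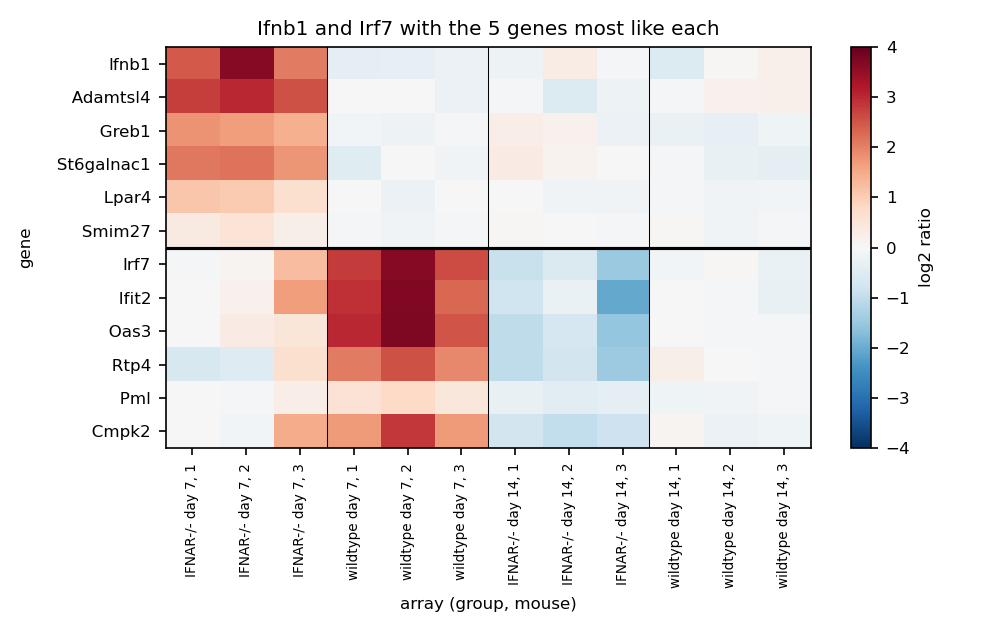
Log2 ratio to the gene's own median over the 12 arrays for Ifnb1 and for Irf7, each with the 5 genes whose pattern was most like it. Rows are genes, columns are arrays by group and mouse, and colour is the log2 ratio from blue (low) to red (high), with Ifnb1 and its 5 genes reddest on the IFNAR-/- day 7 arrays and Irf7 and its 5 genes on the wildtype day 7 arrays.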

How the data were processed

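RNA of 12 mice was measured on 12 Affymetrix arrays, 1 per mouse. The submitters' processing notes name RMA without a version. The deposited values are linear ratios per probe set, set by the authors relative to a value close to the median of all 12 arrays: this is read from the values, since each median lay within 0.02 of 1 for 100% of probe sets. Ratios keep no brightness over background, so they do not show whether a gene, such as an interferon alpha gene, was near background. Separately, the number of arrays limits the precision.

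Log2 was taken with no pseudocount, filter or further normalization, and a gene is the mean of its probe sets with 1 symbol (34945 probe sets, 18193 genes). Another 932 probe sets with several symbols were not used. limma 3.58.1 in R 4.3.3 fitted 1 mean per group to all genes, with 8 residual degrees of freedom. Tests were two-sided and adjusted by Benjamini-Hochberg over 18193 genes, with 0.05 as the threshold. Code was tested on simulated data. The members, lists and markers were chosen with earlier results of these data known. Named genes were the 6 members, up to 4 called genes with the lowest p per list and comparison, the 5 most alike genes per member, and Ifnar1 and Itgax; others are marked. Promoters came from RefSeq (GRCm38.p6), and the search window was lengthened to 250 bases after the Ifna2 sequence was seen. Alternatives changed the normalization, variance model, probe sets, arrays used and RNA quality covariates.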

Additional observations from a re-analysis of the deposited data

Results flagged for a closer look

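For 8 pathway genes the genotype difference itself differed between the days, by the limma test of the interaction, day 14 less day 7 (adjusted over 18193 genes, n = 3 mice per group). Of 65 pathway genes 6 were higher and 2 lower, against 1.14% and 1.34% of all genes. Sting1, the adaptor of DNA sensing, had 1.63 ± 0.22 (SE, adjusted p = 0.00679), and Clec7a, the beta-glucan receptor, had 0.97 ± 0.12 (adjusted p = 0.00646). The nucleic acid sensor Zbp1 had 2.31 ± 0.47 (limma adjusted p = 0.0314), and the RNA helicase Dhx58 had 1.37 ± 0.26 (adjusted p = 0.0261). The factor Irf8 had 1.77 ± 0.36 (limma adjusted p = 0.0293), and Atf3 had 1.47 ± 0.26 (adjusted p = 0.0185). The adaptor Ticam1 had -1.16 ± 0.23 (limma adjusted p = 0.028), and the acetyltransferase Crebbp had -0.79 ± 0.16 (adjusted p = 0.0316).

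Calls for Sting1 and Clec7a held whichever 1 array was left out, and the other 6 were lost without at least 1 array. The number of calls was 2 without IFNAR-/- day 7 mouse 2 and 11 without IFNAR-/- day 7 mouse 3, and 8 of the 12 single omissions moved it by over 1.5 times. After adjustment for the 5′ over 3′ signal 0 of 65 passed with limma and 17 had an unadjusted p under 0.05, all 8 keeping their direction. In the same comparison 3 of 5 T cell markers (list median 3.05) and 2 of 4 natural killer cell markers (1.73) were higher. So were 2 of 7 conventional dendritic cell markers (0.93), against 1.14% of all genes. The part of these markers in these results was not tested.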

How the results depend on the processing

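Of 252 alternatives to the genotype differences of the 6 members, 240 moved them by less than the spread between mice. Part of the 240 could not move a difference of group means, so the count overstates stability. These were omissions of an array of the other day, the fit of only the arrays compared and the balanced replicate block. By single probe sets Irf5 changed sign on both days, and the day 14 difference of Ifnb1, which is close to 0, changed sign under several alternatives. At day 7 single probe sets gave Irf3 differences of 0.51, 0.67, 0.15 and 0.12 and Irf5 differences of 0.03 and -0.76. At day 14 they gave 0.26 for Irf3 (1416898_a_at) and -0.54 and 0.26 for Irf5. The 5′ over 3′ covariate gave day 14 differences of 0.86 for Ifnb1, 0.56 for Ifna2 and -0.24 for Irf5.

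For pathway genes called at day 7 (9), array weights gave 19, a fit of only the arrays compared 4 and the 5′ over 3′ covariate 5. At day 14 (10) that covariate gave 0, single probe sets 16 and a difference of at least 1 gave 6. Between days in IFNAR-/- mice (13), array weights gave 26 and a difference of at least 1 gave 7, and in wildtype mice (21) the 5′ over 3′ covariate gave 5. For the change of the genotype difference (8), a trended robust prior gave 5, array weights 20, leaving out both arrays that stood apart 14, the 5′ over 3′ covariate 0 and the poly-A covariate 4. The causes were not tested. Leaving out each array gave 4 to 11 calls at day 7, 6 to 13 at day 14, 9 to 15 between days in IFNAR-/- mice, 16 to 25 in wildtype mice and 2 to 11 for the change. Over the same omissions, the day 7 differences of Ifna2, Ifna4, Irf3, Irf5 and Irf7 lay at 0.43 to 0.68, 0.39 to 0.55, 0.31 to 0.40, -0.40 to -0.34 and -3.00 to -2.28. Those at day 14 lay at 0.21 to 0.41, -0.33 to -0.01, 0.10 to 0.17, -0.22 to -0.07 and -1.08 to -0.63.

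The labels number mice 1 to 3 in each group but do not say that numbers pair them, and deviations of same-numbered mice correlated between -0.397 and 0.232. Using the mouse number as a replicate block cannot change a difference in this balanced design, only its SE and the calls. The Ifnb1 day 7 difference was then 3.03 ± 0.29 (SE) and that of Irf7 -2.59 ± 0.37. Pathway calls were 8 and 10 at day 7 and day 14, 12 and 21 between days in IFNAR-/- and wildtype mice, and 7 for the change. With 3 mice per group, the day 14 differences of Ifnb1 and Ifna4 lie within the spread between mice.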
